A study of Mus musculus with 8 samples.

Results

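The Fos, Jun and Egr genes and Atf3 encode transcription factors of the immediate early response. The 10 genes described here are Fos, Fosb, Fosl2, Jun, Junb, Jund, Atf3, Egr1, Egr2 and Egr3, taken by name from the 22911 named genes on the array and found through the RefSeq accession of each probe. All 10 had at least 1 probe, 16 probes in all, and 8 of the 10 genes were bright enough to be tested. Gene expression was measured on single-color SurePrint G3 mouse microarrays in mouse photoreceptor cells of postnatal day 8, with 4 arrays labelled Lpcat1 HZ (heterozygous) and 4 labelled Lpcat1 KO (knockout). Lpcat1 encodes an enzyme that makes phosphatidylcholine with saturated fatty acids. All mice were labelled C57BL/6. By the methods, the KO line began on C57BL6/N, was crossed to C57BL6/J, and animals homozygous for the rd8 mutation of Crb1 were not used. HZ mice, which carry a deleted Lpcat1 allele themselves, served as the control. The cells of both groups were dissociated with trypsin and collected by magnetic beads against the surface marker CD73 before RNA was prepared. All arrays are of cells isolated in this way. Levels present in the retina and changes during the isolation therefore cannot be told apart. The labels number the replicates 1 to 4 in each group, and nothing in them says whether an array stands for 1 mouse or for pooled mice.

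Immediate early genes are transcribed within minutes of a stimulus such as calcium entry, growth factors or cell stress, without a need for newly made protein. Fos and Jun proteins pair through leucine zippers to form activator protein-1 (AP-1), Atf3 is a stress-induced relative that pairs with Jun proteins, and Egr proteins bind GC-rich sites through zinc fingers. In neurons these genes are widely used as markers of recent activity, and in the retina they are known to respond to light and to injury. The comparison asks whether the level of these genes differed between the labels in isolated photoreceptor cells.

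Sequence before the transcription start is shown for Atf3, the gene with the largest difference, for Fos, whose control region is the textbook example of the response, for Jund, and for Egr2. Sites through which calcium and growth factor signals reach immediate early genes can lie there. Only the 250 bases before a start were searched, and sites farther away are not shown. The sequences are from RefSeq on GRCm38.p6, run 5′ to 3′ on the strand of the gene, and have in capitals the CArG box bound by serum response factor, the cyclic AMP response element core TGACG, the TATA box TATAAA and their reverse complements.
Atf3, chr1:191183334-191183583, minus strand: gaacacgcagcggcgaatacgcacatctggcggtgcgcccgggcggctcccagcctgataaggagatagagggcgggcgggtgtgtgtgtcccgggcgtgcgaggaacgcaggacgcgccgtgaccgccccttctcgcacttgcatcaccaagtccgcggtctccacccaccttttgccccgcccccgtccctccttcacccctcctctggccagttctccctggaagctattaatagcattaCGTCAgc
Fos, chr12:85473640-85473889, plus strand: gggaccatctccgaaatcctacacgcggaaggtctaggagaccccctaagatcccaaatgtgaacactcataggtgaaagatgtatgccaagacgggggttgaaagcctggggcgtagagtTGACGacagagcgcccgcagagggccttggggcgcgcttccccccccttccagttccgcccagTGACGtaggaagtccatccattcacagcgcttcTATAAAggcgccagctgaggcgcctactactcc
Jund, chr8:70697489-70697738, plus strand: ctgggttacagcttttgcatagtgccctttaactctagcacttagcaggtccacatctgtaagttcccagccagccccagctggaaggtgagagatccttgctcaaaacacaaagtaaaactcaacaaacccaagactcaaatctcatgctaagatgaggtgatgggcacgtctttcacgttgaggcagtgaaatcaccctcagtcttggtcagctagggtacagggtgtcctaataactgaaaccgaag
Egr2, chr10:67537789-67537818, plus strand: tcctcagtCCATATATGGgcagcgaCGTCA
The Egr2 box CCATATATGG began 72 bases before a transcript start. Egr2 has several transcript starts, and the stretch shown was chosen because its window held both a CArG box and the core. Their presence there was therefore fixed in advance and cannot be weighed against the shares that follow. The Egr2 window at chr10:67535249-67535498 held none of these letters. Of 32817 mouse windows of 250 bases before a transcript start, 1.47% held a CArG box, 17.7% the core TGACG, 12.4% the TATA box, 1.55% the full cyclic AMP response element TGACGTCA, 6.75% an AP-1 site TGANTCA and 4.7% an EGR site GCGNGGGCG, on either strand, and every full element holds the core too. The Jund and Jun windows held none of these letters. No window of Egr1 or Egr3 was available to search. The Fos window held no CArG box, and bases beyond the window were not searched. The Fosb and Fosl2 windows each held an EGR site GCGGGGGCG, and those of Fosb and Junb held the core TGACG. A match is a string of letters only and was not tested as a site.

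The 8 arrays lay on the same slide with each genotype in a row of its own, and the effects of row and genotype cannot be told apart. The normalized log2 signal of a probe is its log2 signal less the 75th percentile over non-control spots of the same array, and each difference is KO minus HZ. It is a value relative to the other probes of that array, and levels of different probes cannot be compared. The number of arrays limits the precision, and p-values measure only the spread between these arrays. The arrays were alike across tested probes (Pearson's r of 0.974 to 0.992), between 59.5% and 64.6% of probes were well above background, and HZ replicate 4 stood apart with 458 non-uniform spots against 2 to 25 on the others. No spot of the 10 genes was among the outliers. Lpcat1 itself did not separate the labels (difference -0.037, standard error 0.11, limma adjusted p = 0.931), and genotypes are given as labelled. All 20 rod photoreceptor markers were well above background.

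Among the 8 tested genes, 7 were higher on the arrays labelled KO and 1 was lower, with a median log2 difference of 0.25. Over all 14848 tested genes 56.8% were higher and the median was 0.029. Atf3 and Egr1 were the 2 genes past a fold change of 1.5 and an adjusted p of 0.5, the looser thresholds given in the methods, at which 0.33% of all tested genes were called higher and 1.13% lower. At the stricter thresholds of the methods, 1.2-fold with an adjusted p of 0.05, limma called 0 of the 8 genes and 0% of all tested genes. At an unadjusted p under 0.05, Atf3, Egr1, Egr2 and Jund were higher, 4 of the 8 genes, where 5.81% of all tested genes were higher and 3.5% lower. Every KO array lay above every HZ array for Atf3, Egr1 and Jund, 3 of the 8 genes, a pattern found in 5.48% of all tested genes. The reverse was found in 2.52% of all tested genes and in 0 of the 8.

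**Figure D1:**
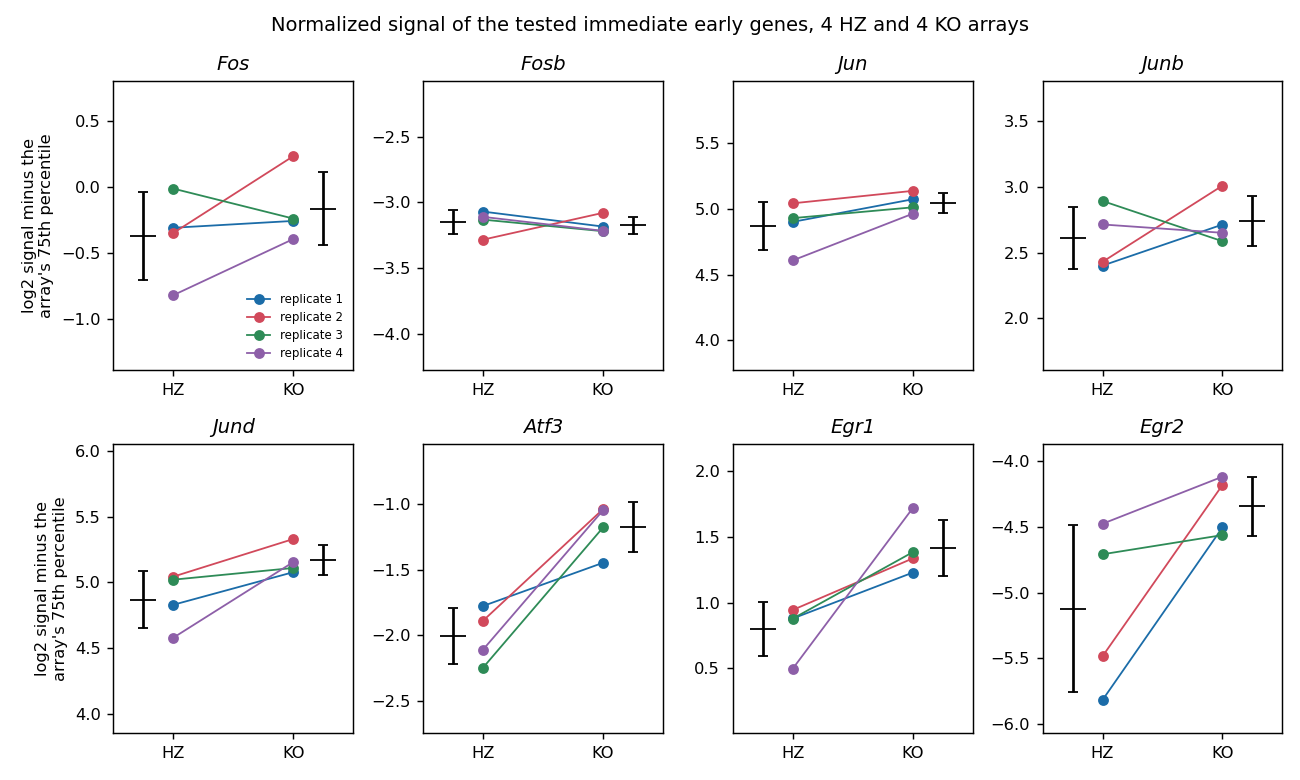
Normalized log2 signal (y axis, each panel spanning the same range of 2.2) of the 8 tested genes on the 4 HZ and 4 KO arrays, with lines joining arrays of the same replicate number and black bars for the mean ± SD of each group (n = 4). Atf3, Egr1 and Jund show no overlap between the groups, whereas Fos, Fosb, Jun, Junb and Egr2 overlap.

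Atf3, which belongs to the ATF/CREB family and is induced by many forms of cell stress, had the largest difference. Its normalized log2 signal was -1.78, -1.89, -2.25 and -2.11 on HZ replicates 1 to 4 and -1.45, -1.04, -1.18 and -1.05 on KO replicates 1 to 4. Every KO array was above every HZ array, the nearest being KO replicate 1 and HZ replicate 1. The means were -2.01 ± 0.21 (SD, n = 4) and -1.18 ± 0.19 (SD, n = 4), 0.83 apart on the log2 scale (standard error 0.14, 95% interval 0.50 to 1.15, limma adjusted p = 0.287), or 1.77-fold. The difference was 0.33, 0.85, 1.07 and 1.06 in pairs 1 to 4. With normexp background correction it was 0.48 and below a fold of 1.5. The call of Atf3 was lost without HZ replicate 1 or 3 and without KO replicate 2, 3 or 4 (limma adjusted p between 0.529 and 0.691). Its unadjusted limma p in these fits was between 3.7e-04 and 0.0014, against 3.3e-04 with all arrays. Calls over all probes fell too, from 78 higher to 15 without KO replicate 2 and to 0 in the rest of these fits. The Atf3 difference itself stayed between 0.75 and 0.92 with any array left out.

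Egr1, also known as Zif268 or Krox-24, is the most widely used of the Egr activity markers. Its normalized log2 signal was 0.88, 0.94, 0.88 and 0.50 on HZ replicates 1 to 4 and 1.23, 1.34, 1.38 and 1.72 on KO replicates 1 to 4. The groups did not overlap, and pair 4 held both the lowest HZ and the highest KO value. The means were 0.80 ± 0.20 (SD, n = 4) and 1.42 ± 0.21 (SD, n = 4), 0.62 apart (standard error 0.14, 95% interval 0.29 to 0.95, limma adjusted p = 0.377), or 1.53-fold. The difference was 0.35, 0.39 and 0.51 in pairs 1 to 3 and 1.22 in pair 4. Without both arrays of replicate 4, a choice made after seeing the data, it was 0.42 and below a fold of 1.5 (limma adjusted p = 0.623). The call of Egr1 was also lost without any HZ replicate other than 2 and without any KO replicate other than 1, with differences of 0.52 to 0.64. Its unadjusted limma p in these fits was between 0.0047 and 0.0066, against 0.0025 with all arrays. Without HZ replicate 4 or KO replicate 4 the difference of 0.52 was below a fold of 1.5. Over all probes, 0 were called higher without HZ replicate 1 or 3 or KO replicate 3 or 4.

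Egr2, or Krox-20, is known for its part in hindbrain patterning and myelination besides its early response. It was dim, and was well above background on 3 HZ and 4 KO arrays. Its normalized log2 signal was -5.82, -5.48, -4.71 and -4.48 on HZ replicates 1 to 4 and -4.50, -4.18, -4.56 and -4.12 on KO replicates 1 to 4. HZ replicate 4 reached the KO range, and HZ replicates 1 and 2 were far below it. The difference was 0.78 (standard error 0.30, 95% interval 0.099 to 1.46, limma adjusted p = 0.574), or 1.72-fold, and not past the looser thresholds because of its adjusted p. In pairs 1 to 4 it was 1.31, 1.30, 0.15 and 0.36. With the replicate number as a block the adjusted p of Egr2 was 0.386 in limma and it was called together with Atf3 and Egr1, so that 3 of the 8 genes were called where 0.956% of all tested genes were called higher. Egr2 was also called with quantile normalization, with the mean of a gene's probes, without HZ replicate 2 and without HZ replicate 4. With normexp background correction the Egr2 difference was 0.25. Egr3, a related gene induced in neurons and muscle spindles, had 3 probes, and none was well above background on any array.

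**Figure D2:**
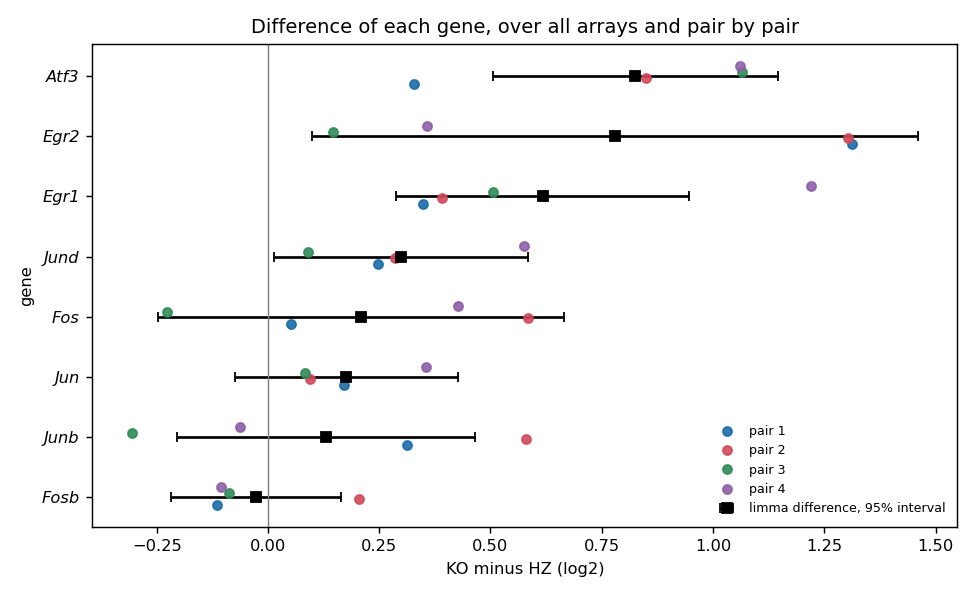
Difference KO minus HZ (x axis, log2) of each tested gene (y axis), with squares and bars for the limma difference and its 95% interval over all 8 arrays, and colored points for the difference within each replicate number. The intervals of Atf3, Egr2, Egr1 and Jund lie above 0. Outside the interval of their gene lie Egr1 in pair 4 (1.22), Atf3 in pair 1 (0.33) and Fosb in pair 2 (0.20). Junb lies outside its interval in pair 2 (0.58) and pair 3 (-0.31).

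The Jun proteins are the partners without which Fos proteins cannot form AP-1, and Jun and Jund were detected on every array. Jund, which is made in resting cells more steadily than the other Jun genes, had a normalized log2 signal of 4.83, 5.04, 5.02 and 4.58 on HZ replicates 1 to 4 and 5.08, 5.33, 5.11 and 5.15 on KO replicates 1 to 4. The groups did not overlap, but HZ replicate 2 and KO replicate 1 lay side by side. The difference was 0.30 (standard error 0.12, limma adjusted p = 0.596), or 1.23-fold, and it was 0.20 without HZ replicate 4. A second Jund probe, which targets another transcript accession, differed by 0.14 (standard error 0.096), with overlapping groups. Jun had 4.90, 5.04, 4.93 and 4.61 on HZ replicates 1 to 4 and 5.07, 5.14, 5.01 and 4.96 on KO replicates 1 to 4. HZ replicate 4 was the lowest, and the other arrays overlapped. The Jun difference was 0.18 (standard error 0.11, 95% interval -0.075 to 0.43, limma adjusted p = 0.695), and it was 0.089 without HZ replicate 4 and 0.12 without both arrays of replicate 4. Junb, which can replace Jun in AP-1 or restrain it, had 2.40, 2.43, 2.89 and 2.72 on HZ replicates 1 to 4 and 2.71, 3.01, 2.59 and 2.65 on KO replicates 1 to 4. Its groups overlapped widely, with means 0.13 apart (standard error 0.15, limma adjusted p = 0.807). The Junb difference was 0.041 without KO replicate 2, 0.061 without HZ replicate 1, 0.071 without HZ replicate 2 and 0.22 without HZ replicate 3. A dimmer Junb probe differed by 0.18 (standard error 0.092).

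Neither tested Fos gene separated the labels. Fos, the founding member of the family, had a normalized log2 signal of -0.31, -0.35, -0.011 and -0.82 on HZ replicates 1 to 4 and -0.26, 0.24, -0.24 and -0.39 on KO replicates 1 to 4. HZ replicate 4 was the lowest and KO replicate 2 the highest, with the others mixed. The difference was 0.21 (standard error 0.20, 95% interval -0.25 to 0.66, limma adjusted p = 0.778). The Fos difference was 0.059 when HZ replicate 4 was left out, 0.076 when KO replicate 2 was and 0.33 when HZ replicate 3 was. Fosb, whose spliced form accumulates in neurons after repeated stimulation, had -3.07, -3.28, -3.13 and -3.11 on HZ replicates 1 to 4 and -3.18, -3.08, -3.22 and -3.22 on KO replicates 1 to 4. No group of arrays stood apart. The Fosb difference was -0.026 (standard error 0.083, 95% interval -0.22 to 0.16, limma adjusted p = 0.936). Its direction turned under quantile normalization, under normexp background correction, without HZ replicate 1 and without both arrays of replicate 4. With normexp background correction the Fosb difference was 0.20 (limma unadjusted p = 0.018, adjusted p = 0.384). A second Fosb probe was well above background on 0 arrays. Fosl2, which encodes the Fos relative Fra-2, was not tested, because its brighter probe was well above background on HZ replicates 3 and 4 and KO replicate 2 alone, and its second probe on 0 arrays.

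Read pair by pair, 26 of the 32 differences of the 8 genes were above 0. The number of genes higher on the KO array was 7, 8, 5 and 6 in pairs 1 to 4, with medians of 0.28, 0.49, 0.086 and 0.39. Of all tested genes 60.3%, 49.5%, 55.4% and 59.8% were higher in pairs 1 to 4. Over all tested genes the medians in pairs 1 to 4 were 0.048, -0.0025, 0.027 and 0.085. In all 4 pairs Atf3, Egr1, Egr2, Jun and Jund were higher, 5 of the 8 genes, where 18.7% of all tested genes were higher in 4 of 4 pairs. Fos was higher in 3 pairs, Junb in 2 and Fosb in 1. Across the 8 arrays Pearson's r between members lay between -0.36 for Fosb with Egr1 and 0.92 for Jun with Jund, with a median of 0.40 over 28 pairs of genes. After the group means were removed the median was 0.20, with 17 of the 28 above 0, and r was 0.89 for Jun with Jund, 0.85 for Fos with Jund and 0.75 for Junb with Egr2, but -0.57 for Jun with Egr2. These 8 points share a slide and the pairing of replicate numbers, and are given as a description.

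The mean deviation of the 8 genes from their own means was -0.25, -0.19, -0.048 and -0.27 on HZ replicates 1 to 4 and 0.087, 0.34, 0.11 and 0.21 on KO replicates 1 to 4. Of all other tested genes, the 5 with the pattern most like it over the 8 arrays were Mapkapk3 (r of 0.990), Limd1 (0.979), Dennd5b (0.977), Igf2 (0.972) and Usp15 (0.966). Their log2 differences lay between 0.23 for Usp15 and 0.74 for Mapkapk3. They were taken as the highest of 14848 genes and are given as a description.

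Of 11 other genes of the AP-1 and Egr family 10 were on the array and 4 were tested, 2 higher and 2 lower, with a median difference of -0.039. Atf2, which pairs with Jun, differed by 0.13 (standard error 0.10), and Jdp2, a repressor that pairs with Jun, by 0.048 (standard error 0.12). Mafg and Mafk, small Maf proteins that lack an activation domain, differed by -0.13 (standard error 0.11) and -0.29 (standard error 0.14). Fosl1, Egr4, Maff, Batf2 and Batf3 were well above background on 0 arrays and Batf on 1. In this family 0 tested genes were called, and 0 had an unadjusted limma p under 0.05.

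Of 40 other immediate early genes, 37 were tested, 23 of them higher and 14 lower with a median of 0.024, close to that of all tested genes. At the looser thresholds 0 were called in either direction, 4 were higher at an unadjusted p under 0.05 (Ccn2, Csrnp1, Ier2 and Klf6) and 0 lower. Every KO array lay above every HZ array for Csrnp1, Klf6 and Nr4a1, 3 of the 37. Of all tested genes 5.81% were higher at that unadjusted p and 5.48% did not overlap in this direction. The largest difference was that of Ccn2, which encodes a matrix-associated growth factor, at 0.70 (standard error 0.24, limma adjusted p = 0.530). Nptx2, a secreted synaptic protein, differed by 0.52 (standard error 0.37). Arc, which controls receptor uptake at synapses, differed by 0.50 (standard error 0.27). Csrnp1, a nuclear protein induced by axin, differed by 0.35 (standard error 0.11, limma adjusted p = 0.488). Myc differed by -0.40 (standard error 0.45) and Ccn1 by -0.34 (standard error 0.26). With the replicate number as a block Ccn2 was past the looser thresholds (limma adjusted p = 0.308).

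Signals reach these promoters through MAP kinases, serum response factor with its partners, and CREB, and Nab proteins restrain Egr proteins. Of 25 such genes 24 were tested, 18 higher and 6 lower, with a median of 0.091. Of the 24, 0 were called, 3 were higher at an unadjusted limma p under 0.05 (Mrtfb, Map2k7 and Mapk3), and for Mrtfb, Map2k7, Mapk3 and Mapk9 every KO array lay above every HZ array, beside the same 5.81% and 5.48% of all tested genes. Mrtfb, a partner of serum response factor, was higher by 0.37 (standard error 0.092, limma adjusted p = 0.411). Elk3 differed by 0.36 (standard error 0.22), Nab2 by 0.30 (standard error 0.32) and Mef2c by -0.25 (standard error 0.24). Serum response factor itself, Srf, differed by 0.073 (standard error 0.077) and Creb1 by -0.18 (standard error 0.22).

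**Figure D3:**
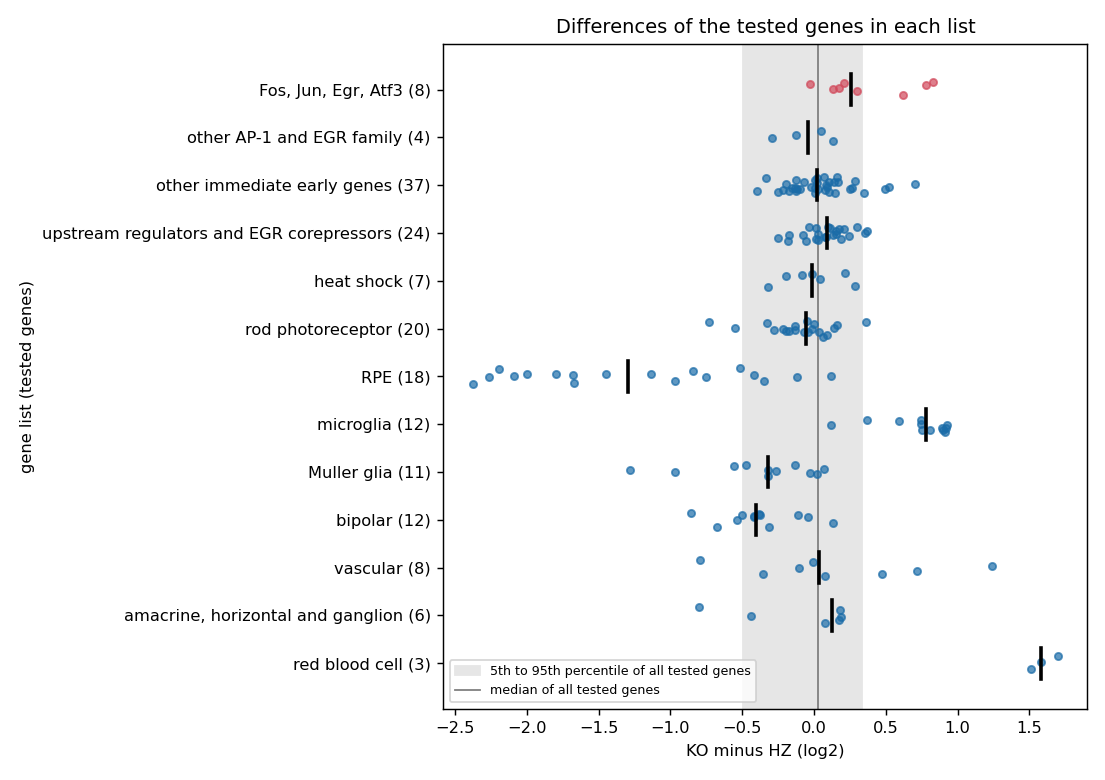
Difference KO minus HZ (x axis, log2) of every tested gene in each list (y axis, number of tested genes in parentheses), with a black bar for the median of the list and the grey band for the 5th to 95th percentile of all tested genes. The red points of the 8 genes have a median of 0.25, the other immediate early genes a median of 0.024, and the RPE and microglia markers medians of -1.29 and 0.78.

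Markers of other cells were measured too, and in these bulk samples fewer cells of a type and less RNA per cell cannot be told apart. At the looser thresholds limma called 10 of 18 RPE markers, 1 of 11 Müller glia markers and 1 of 12 bipolar cell markers lower, and 0 markers of the other lists in either direction. Of all tested genes 0.33% were called higher and 1.13% lower. At an unadjusted p under 0.05, 4 of the 12 microglia markers and 3 of the 3 red blood cell genes were higher. Lower at that p were 13 of 18 RPE, 3 of 11 Müller glia, 1 of 12 bipolar, 1 of 20 rod and 1 of 7 heat shock genes. For vascular markers and for those of amacrine, horizontal and ganglion cells the count was 0 in both directions. Of all tested genes 5.81% were higher and 3.5% lower at that p. The counts of higher and lower markers that follow are of the sign of the difference. Microglia markers were higher for 12 of 12 genes (median 0.78), with a summed level, in multiples of the 75th percentile of the array, of 4.03 to 8.03 on HZ and 5.84 to 10.2 on KO arrays. Red blood cell genes were higher for 3 of 3 tested genes, with summed levels of 0.238 to 0.606 and 0.349 to 2.18. Of 18 tested markers of the retinal pigment epithelium (RPE), 17 were lower (median -1.29), with summed levels of 135 to 165 on HZ and 135 to 144 on KO arrays that were made up mostly of Otx2, also a photoreceptor gene. Rpe65 lay between -2.18 and -0.55 on HZ and between -5.03 and -2.65 on KO arrays. Müller glia markers were lower for 9 of 11 genes (median -0.32, summed levels of 31.0 to 39.2 and 20.8 to 37.8), and bipolar cell markers for 11 of 12 (median -0.40, summed levels of 75.8 to 123 and 65.0 to 85.5). Each of these lists shares only 1 gene with the RPE list, and so is not fully independent of it. Rlbp1, at -0.97, is counted for both RPE and Müller glia, and Trpm1 for both RPE and bipolar cells. The Müller glia marker called lower was Car14 at -1.28. Clu, Sox9, Dkk3, Kcnj10, Vim and Aqp4 differed by -0.56, -0.48, -0.32, -0.32, -0.27 and -0.13. Glul, Slc1a3 and Apoe differed by 0.071, -0.026 and 0.019. Vascular markers were higher for 4 of 8 genes (summed levels of 3.43 to 6.82 and 3.34 to 4.28), those of amacrine, horizontal and ganglion cells for 4 of 6 (61.4 to 72.3 and 56.6 to 73.4), and rod markers for 6 of 20 (1522 to 1849 and 1460 to 1710). Of the amacrine markers, Gad1 was well above background on 0 arrays and Gad2, Slc32a1 and Slc6a9 on all 8. The defining markers Cx3cr1, Rpe65, Glul, Pecam1 and Hba-a1 were well above background on all 8 as well. Heat shock genes, induced by another stress response, were higher for 3 of 7 (median -0.015, summed levels of 118 to 134 and 109 to 131). HZ replicate 4 had a microglia level of 8.03, within the KO range. On that array Atf3 at -2.11 and Egr1 at 0.50 were below their KO ranges, and Egr2 at -4.48 was within its KO range and the highest of the HZ arrays. The part of the other markers in the differences of Atf3, Egr1 and Egr2 was not tested.

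**Figure D4:**
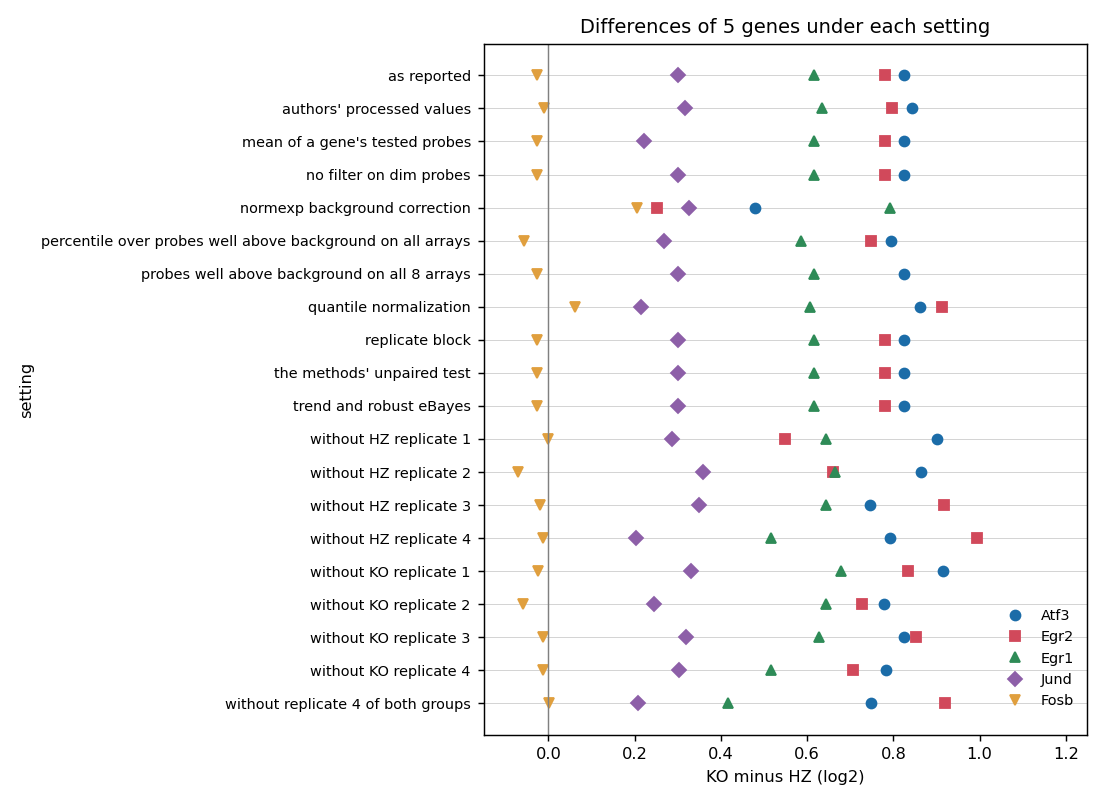
Difference KO minus HZ (x axis, log2) of 5 genes as reported and under each of the 19 other settings (y axis). Atf3, Egr1, Egr2 and Jund stay above 0 under each setting in which they were measured, Atf3 from 0.48 to 0.92 and Egr1 from 0.42 to 0.79, while Fosb lies on both sides of 0.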

How the data were processed

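For 8 single-color arrays the authors deposited background-subtracted spot intensities (Agilent Feature Extraction 10.7.1.1, per the submitters' processing notes). A second deposited file holds their log2 values, shifted by the 75th percentile. Set against the scanner values (r of 0.998 to 1.00 across tested probes), these were centered per probe with the same direction and scale, and the medians of its arrays lay between -0.065 and 0.20.

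From the intensities, log2 signal minus the 75th percentile of 59305 non-control spots was computed, and the spots of each probe were averaged without those marked as outliers. A probe was tested if 4 or more arrays had it well above background and each group had 3 or more values, 34303 of 56605. Of all probes, 32994 were named through their accession with the RefSeq gene list of that mouse assembly, GRCm38.p6. A gene is reported by its brightest probe. KO was set against HZ by limma 3.58.1 (lmFit, eBayes, two-sided; R 4.3.3) with Benjamini-Hochberg adjustment over all tested probes, with data.table (version 1.17.8) for reading and matplotlib 3.10.9 for plots. The comparison was tested on simulated data without pairing, with added shifts larger than the difference of any of the 8 tested genes. It therefore does not cover differences of their size.

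Arrays with the same replicate number deviated together from their group means (r of 0.164 to 0.337, against -0.340 to 0.118 for different numbers). The numbers were taken to pair the arrays in the pair-by-pair values and in the replicate block. Deviations cancel out within a group, so a positive r for same numbers lowers the r for different numbers. The limma fit reported as main has no block and leaves the pairing out. The replicate number is also the column of the array on the slide. The members, gene lists, named genes and thresholds were chosen with earlier results of these data known. Named by rule are the 10 genes, their family, the 6 other immediate early genes and 4 upstream genes that differed most, the defining marker of each cell type, Lpcat1 and the 5 most similar genes. Ier2, Klf6, Nr4a1, Map2k7, Mapk3, Mapk9, Otx2, Gad2, Slc32a1, Slc6a9, Srf and Creb1 were added after their values were seen. The Müller glia markers other than Glul, and Trpm1, were also named outside this rule. Some genes that the rule takes in are not reported here.

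The settings varied were the normalization (quantile), the background (normexp, offset 50, on median signals), the probes behind the percentile, the filter on dim probes (none, or all 8 arrays), the authors' values, the replicate block, trend and robust eBayes, the methods' unpaired test, the mean of a gene's probes, and each array left out.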

Additional observations from a re-analysis of the deposited data

Results flagged for a closer look

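Of 46 groups of 4 values checked, 3 held a single array well away from the remaining 3, by Dixon's criterion, where chance gives about 2.3. Egr1 on HZ replicate 4 was 0.499, while the other HZ arrays lay between 0.879 and 0.945. The summed level of the microglia markers on HZ replicate 4 was 8.03, against 4.03 to 4.63 on the other HZ arrays. The summed level of the red blood cell genes on HZ replicate 1 was 0.606, against 0.238 to 0.257 on the other HZ arrays.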

How the results depend on the processing

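The median of the tested genes stayed between 0.18 and 0.34 over 19 alternatives. Under the filter of all 8 arrays, which leaves Egr2 out, 6 of 7 genes were higher. In the other settings 7 or 8 of the 8 were. Atf3 and Egr1 were past the looser thresholds in 11 of the 19 each. Of the 8 genes, 2 were past them as reported, 0 without a filter on dim probes, 1 with normexp background correction, 3 with quantile normalization, with the mean of a gene's probes and with the replicate block (Egr2 added), and 0 to 3 with arrays left out (0 without HZ replicate 1 or 3, KO replicate 2, 3 or 4, or both arrays of replicate 4). At an unadjusted p under 0.05 there were 4 as reported and 2 to 4 with arrays left out (2 when HZ replicate 1 or either of KO replicates 2 and 4 was dropped). With normexp background correction there were 5, with Fosb and Jun added and Egr2 lost. Fosb changed sign with normexp background correction (0.20), quantile normalization (0.061), without HZ replicate 1 (9.7e-05) and without both arrays of replicate 4 (6.9e-04), with a range of -0.071 to 6.9e-04 over arrays left out. Over all probes, 78 were higher and 279 lower at the looser thresholds. These counts were 254 and 913 with the replicate block, 9 and 32 without a filter on dim probes, 102 and 178 with quantile normalization, and 125 and 147 without HZ replicate 4. With arrays left out they ranged from 0 to 373 and from 0 to 1361, and were 0 and 0 without both arrays of replicate 4. The replicate block changed the call of Egr2 and of no other gene of the 8, and that of Ccn2. The cause of these changes was not tested. Egr2 has no value under the filter of all 8 arrays, and Egr3, Fosl2 and Egr2 on HZ replicate 1 are limited by signal over background. Changes are relative to the 75th percentile.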
